A study of Homo sapiens with 12 samples.

Results

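The 6 arrays described here tested what 4-hydroxytamoxifen (4-OHT) did to transcript levels in RD cells that carried only the retroviral vector pK1. They are 6 of the 12 arrays of the series: 3 from vector cells given 30 nM 4-OHT for 24 h and 3 from vector cells without it, matched by the replicate number in their titles. RD is an established line of embryonal rhabdomyosarcoma, a tumour of the skeletal muscle lineage. The other 6 arrays came from RD cells transduced with PAX3-FKHR-ER, the fusion transcription factor of alveolar rhabdomyosarcoma joined to a modified ligand-binding domain of the estrogen receptor, with and without the same treatment. The vector cells lack that fusion by design and served as the control for the ligand. Every group was grown in serum, so serum hormones and lipids were present with and without 4-OHT. All arrays rest on 1 cell line and 1 dose at 1 time. The study's design names 3 populations per construct, but the labels do not say whether a replicate number marks a population, so the p-values measure only the spread between these samples.

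4-OHT is an active metabolite of tamoxifen and a ligand of the estrogen receptors, at which it blocks or activates transcription depending on the tissue. Ligand-bound receptors act on DNA through the estrogen response element or through other factors such as AP-1. Tamoxifen and its metabolites also bind EBP and DHCR7, enzymes of late cholesterol synthesis, and activate the xenobiotic receptor that controls CYP3A4. In fusions such as PAX3-FKHR-ER the drug serves as a switch, and cells without the fusion show what the drug does alone.

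Expression was read on Affymetrix U133A arrays, whose values are linear intensities, 1 per probe set, called signals below. Differences are given as log2(signal + 16) with minus without 4-OHT, which understates differences of dim probe sets. Signals of different probe sets were compared only by rank, against the median or as the brightest of a gene, and added only in the marker sums. As a check of the labelled cell type, 10 of 11 muscle-lineage markers of RD cells had a mean signal at or above the median of all probe sets, 57.5. For other lineages this held for 5 of 10 fibroblast, 1 of 10 epithelial, 1 of 8 hematopoietic, 2 of 9 endothelial and 1 of 8 adipocyte markers. The summed muscle markers ranged from 2292 to 8924 without and from 2153 to 8507 with 4-OHT. The summed fibroblast markers ranged from 2070 to 6415 without and from 1509 to 6408 with it. In bulk RNA, fewer cells of a type and less RNA per cell cannot be told apart.

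The replicate 1 arrays stood apart. The 24 poly-A spike-in probe sets, which read RNA added before labelling, had a median signal of 2.77 to 7.41 on the 2 vector arrays of replicate 1 and 118 to 225 on the 4 vector arrays of replicates 2 and 3. An ESR1 probe set that read 121 and 76.2 on the untreated arrays labelled PAX3-FKHR-ER in replicates 2 and 3, and 4.16 and 12.7 on those labelled pK1, read 7.50 and 57.0 in that order in replicate 1. With 4-OHT it read 44.7, 58.6 and 39.2 under the fusion label and 58.4, 5.05 and 5.78 under pK1 (replicates 1, 2 and 3). In replicate 1 the pK1 arrays were thus the higher ones, against their labels. The treated array labelled PAX3-FKHR-ER lay between those of replicates 2 and 3. Another ESR1 probe set read 5.67, 53.1 and 68.3 without and 11.3, 54.7 and 34.2 with 4-OHT under the fusion label. Under pK1 it read 22.7, 8.29 and 7.48 without and 35.5, 32.7 and 9.33 with it. A further probe set read 11.3, 77.9 and 19.5 with 4-OHT under the fusion label and 34.1, 7.48 and 10.7 under pK1. Not every ESR1 probe set went against the labels: another read 45.7 under the fusion label and 27.4 under pK1 on the treated arrays of replicate 1. These probe sets can also read the cells' own transcripts, so they do not settle the labels. The arrays are named by their labels below, and results are given with and without replicate 1.

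That pair also behaved differently with 4-OHT. CXCR4, a chemokine receptor and a known target of PAX3-FKHR, read 180, 142 and 273 without 4-OHT on the arrays labelled pK1 (replicates 1, 2 and 3) and 885, 127 and 189 with it. Among the 3 pairs replicate 1 alone was higher, by 2.20 on the log2 scale, while replicates 2 and 3 differed by -0.15 and -0.49. In the pairs labelled PAX3-FKHR-ER the same probe set differed by 0.66, 2.13 and 2.43, so there replicate 1 had the smallest difference. The other CXCR4 probe sets differed by 1.64 and 2.69 in the replicate 1 pair labelled pK1, and by -0.69 to 0.20 in replicates 2 and 3.

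The same held over many probe sets. Among those with a signal at or above the median, 45 were at least 1 higher with 4-OHT in both PAX3-FKHR-ER pairs of replicates 2 and 3, and 27 were at least 1 lower. These sets were drawn up after the data had been seen, and their values in the other 4 pairs are a description. The 45 had a median difference of 0.94 in the pK1 pair of replicate 1, where 38 were higher and 21 were higher by at least 1. Their medians were 0.07 and -0.05 in pK1 replicates 2 and 3, with 26 and 21 higher, and 0.10 in PAX3-FKHR-ER replicate 1. In the pK1 pairs, 45.05%, 49.3% and 52.3% of all probe sets of that brightness were higher. Of these 11108 probe sets, 175 were at least 1 higher in the pK1 pair of replicate 1. The 27 had a median of -0.48 in pK1 replicate 1, where 22 were lower (54.95% of all of that brightness). Their medians were -0.08 and -0.05 in pK1 replicates 2 and 3. Besides CXCR4, the probe sets highest in the pK1 pair of replicate 1 read VAV3 (2.14), a guanine nucleotide exchange factor, BCHE (2.06), butyrylcholinesterase, and ARRB1 (1.79), an arrestin that regulates receptor signalling.

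**Figure D1:**
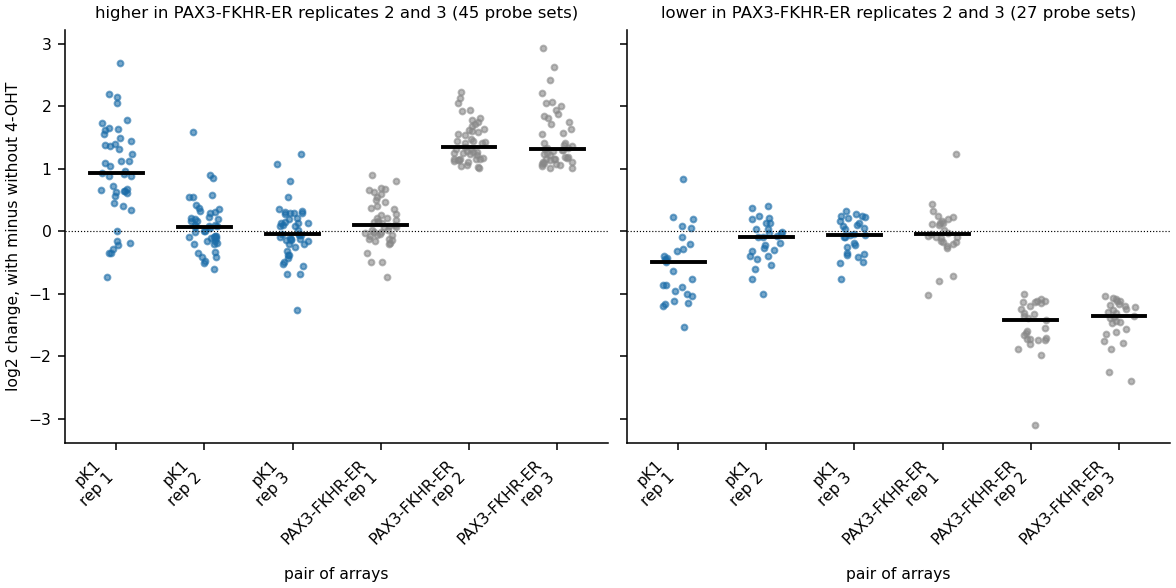
Log2 difference with minus without 4-OHT (vertical axis) of each probe set (points, medians as bars) in the 6 pairs of arrays, for the 45 probe sets at least 1 higher (left) and the 27 at least 1 lower (right) in PAX3-FKHR-ER replicates 2 and 3, which chose them. The pK1 pair of replicate 1 has medians of 0.94 and -0.48, and the pK1 pairs of replicates 2 and 3 lie near 0.

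Across the 11108 probe sets at or above the median signal, the differences of the pK1 pairs correlated with each other at Pearson r = -0.04 (replicates 1 and 2), 0.10 (1 and 3) and 0.07 (2 and 3). The pK1 pair of replicate 1 correlated at 0.26 and 0.25 with PAX3-FKHR-ER replicates 2 and 3, which correlated with each other at 0.34. The pK1 pairs of replicates 2 and 3 correlated with those at -0.04 to 0.02. These correlations run across probe sets, which are not independent, and the pairs share no array.

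**Figure D2:**
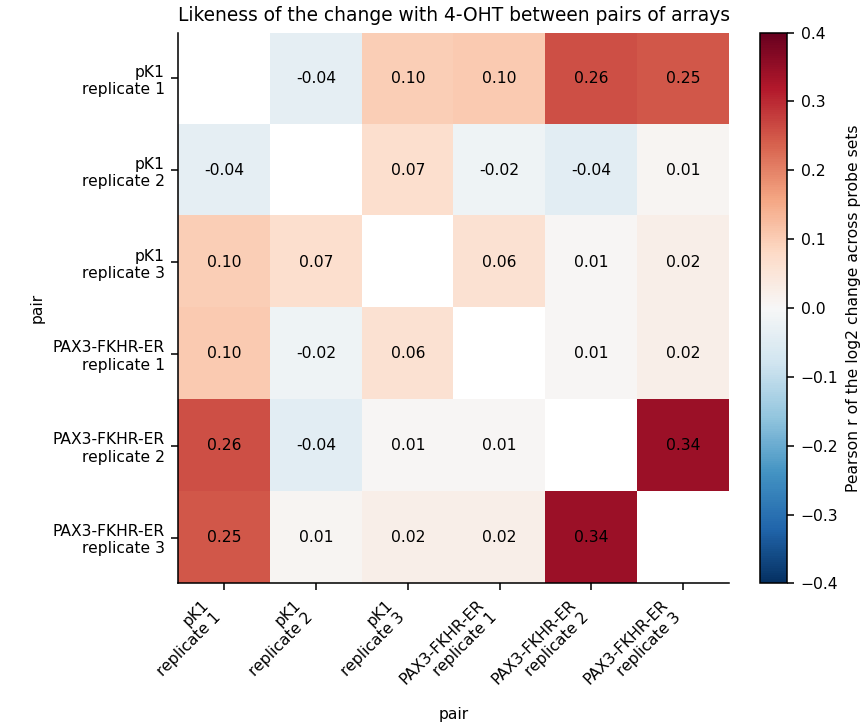
Pearson correlation, across 11108 probe sets, of the log2 difference with minus without 4-OHT between each 2 of the 6 pairs of arrays; colour and number give r. The 3 pK1 pairs correlate with each other at -0.04 to 0.10, while pK1 replicate 1 correlates at 0.26 and 0.25 with PAX3-FKHR-ER replicates 2 and 3.

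No probe set passed the test for 4-OHT in cells labelled pK1. With limma and the pair as a block, 0 of 22215 probe sets (0%) had a Benjamini-Hochberg adjusted p under 0.05, and the smallest adjusted p was 0.784. At an unadjusted p under 0.05 there were 496 higher (2.23%) and 863 lower (3.88%), 1359 in all (6.12%). Without replicate 1, in a fit to the arrays of replicates 2 and 3, there were again 0 (0%), with a smallest adjusted p of 0.942 and 1031 (4.64%) at an unadjusted p under 0.05. The intervals bound the response only on the log2 scale used. That scale understates differences of dim probe sets, so fold changes there are not bounded. The 95% interval of the difference lay within 1 of 0 on either side for 20182 of 22215 probe sets (90.8%), with a median margin of 0.42. In replicates 2 and 3 this held for 18368 probe sets, with a median margin of 0.50. The share depended on the settings. With all replicates it was 53.3% for log2(signal + 1), 99.6% for log2(signal + 64) and 69.5% with no replicate block. Of the 11108 probe sets at or above the median signal, 10646 had such an interval in the main fit. With log2(signal + 1) 10056 of them did, and with no replicate block 7612. An exact sign test of 3 pairs alone cannot give a two-sided p under 0.25.

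More probe sets were lower than higher with 4-OHT in the values as deposited, and that balance differed between scalings. In all 3 pairs 2286 probe sets (10.3%) were higher and 4150 (18.7%) lower. The groups did not overlap for 304 higher (1.37%) and 1206 lower (5.43%). The treated array had the lower median signal in each pair, and the treated medians were 50.4 to 54.1 against 55.6 to 58.4 without 4-OHT. The part of this in the balance was not tested. Of the calls at an unadjusted p under 0.05, 36.5% were higher as deposited, 50.4% after quantile normalization (626 higher, 616 lower) and 79.5% with equal array medians (1342 higher, 347 lower). The median difference of all probe sets was -0.04 as deposited, 0.00 after quantile normalization and 0.06 with equal medians. Large differences shared by all 3 pairs were few: 24 probe sets (0.108%) were at least 0.5 higher and 57 (0.257%) at least 0.5 lower in each, and 1 was at least 1 higher and 1 at least 1 lower (0.0045% each).

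RNA quality readings differed on 1 treated array. The 3′ to 5′ signal ratio of actin was 1.62 on the pK1 array with 4-OHT of replicate 2 and 0.94 to 1.04 on the other 5, and that of GAPDH was 1.17 against 0.85 to 0.95. Their part in the differences of that pair was not tested.

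The ligand's receptors were measured first. ESR1, estrogen receptor alpha, read 63.2, 41.3 and 43.9 without and 39.4, 41.9 and 23.3 with 4-OHT on its brightest probe set. The groups overlapped, and replicate 2 stayed level (mean difference -0.37 ± 0.22 SE, limma adjusted p = 0.790). The 8 other ESR1 probe sets gave -0.31 to 0.51. ESR2, estrogen receptor beta, read 25.6, 23.4 and 23.1 without and 21.0, 11.7 and 25.1 with it, under the median signal throughout. GPER1, a membrane receptor for estrogens, read 37.5, 7.02 and 42.5 without and 16.2, 25.4 and 43.8 with it, and its pairs differed in direction. ESRRA, an orphan receptor related to the estrogen receptors, was lower in all 3 pairs: 195, 163 and 168 without and 156, 141 and 141 with 4-OHT. These groups did not overlap, yet the difference of -0.24 ± 0.13 SE did not pass (limma adjusted p = 0.790), and its other probe set gave 0.07. FOXA1, a pioneer factor for the estrogen receptor, read 44.6, 68.2 and 48.6 without and 20.7, 48.0 and 30.6 with it. It was lower in each pair (-0.53 ± 0.20 SE, limma adjusted p = 0.784). Of 12 measured receptor and coregulator genes 0 were higher and 2 lower in all 3 pairs, where 10.7% and 19.2% of all 11963 genes were, read by their brightest probe set. By that reading 744 of all genes (6.22%) had an unadjusted p under 0.05, and 1 of the 12, FOXA1. Their median was -0.09 as deposited and 0.01 with equal medians.

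Classical estrogen-responsive genes were mostly dim. PGR, the progesterone receptor, read 1.56, 1.24 and 1.36 without and 1.49, 3.10 and 6.13 with 4-OHT. GREB1, a coregulator induced by estrogen in breast cancer cells, read 3.94, 23.1 and 4.02 without and 19.4, 14.4 and 11.5 with it. TFF1, a secreted trefoil peptide, read 36.6, 32.7 and 9.38 without and 23.5, 26.3 and 24.5 with it. All 3 genes lay under the median signal on each array, and their groups overlapped. XBP1, a transcription factor of the secretory pathway, was brighter and lower in each pair, at 204, 498 and 380 without and 182, 382 and 348 with 4-OHT. That came to -0.21 ± 0.11 SE (limma adjusted p = 0.784). FHL2, a LIM-domain coregulator, had -0.60 and -0.64 in replicates 1 and 2 but 0.00 in replicate 3. Of 23 measured genes 2 were higher and 4 lower in all 3 pairs (all genes: 10.7% and 19.2%). Their median of -0.02 became 0.05 after quantile normalization and 0.08 with equal medians.

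Sterol synthesis enzymes include the drug's other binding partners. EBP, the sterol isomerase, read 175, 668 and 344 without and 191, 591 and 314 with 4-OHT. Replicate 1 was higher and the others lower, with a mean of -0.06 (95% interval -0.28 to 0.16). DHCR7, which makes cholesterol from its last precursor, read 151, 472 and 315 without and 186, 362 and 291 with it, a mean of -0.07 (95% interval -0.37 to 0.23). Both means turned positive with equal medians, at 0.04 and 0.03. HMGCS1, an early enzyme of the pathway and a target of the sterol-regulated factor SREBP, had pair differences of 0.43, -0.93 and -0.09. It read 79.6, 177 and 114 without and 112, 85.3 and 107 with 4-OHT. INSIG1, which holds SREBP in the endoplasmic reticulum, read 181, 540 and 182 without and 161, 577 and 206 with it. PMVK, phosphomevalonate kinase, was lower in each pair, from 131, 212 and 193 to 92.2, 174 and 165 (-0.30 ± 0.13 SE, limma adjusted p = 0.784). For all 16 measured enzymes the 95% interval stayed within 1 of 0. So did that of 90.8% of all probe sets and 10646 of the 11108 at or above the median signal, where 15 of the 16 lay. Of the 16 enzymes 1 was higher and 1 lower in all 3 pairs (all genes: 10.7% and 19.2%). The median of the 16 was -0.09 as deposited and 0.01 with equal medians.

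**Figure D3:**
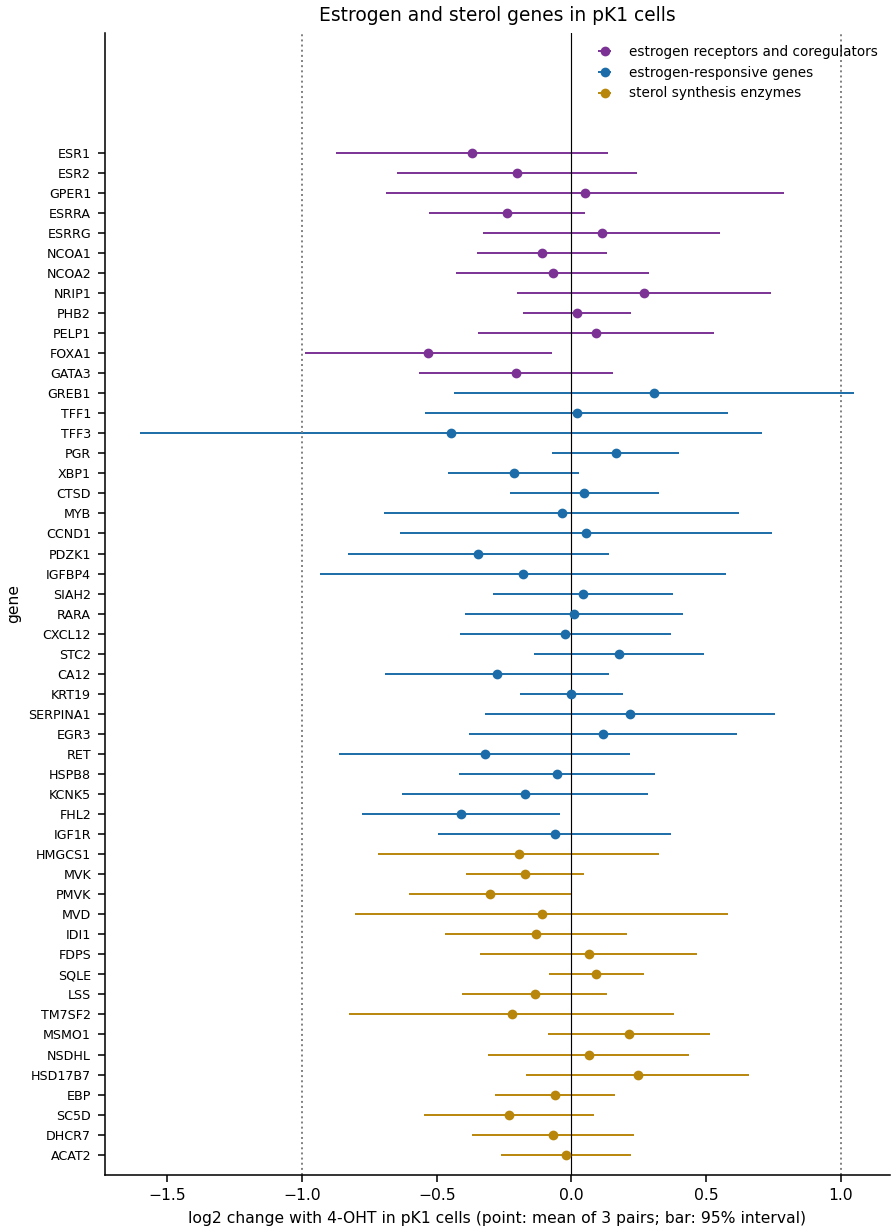
Log2 difference with minus without 4-OHT (horizontal axis) for 51 genes of 3 lists in cells labelled pK1; points are means of 3 pairs, bars 95% intervals from limma, and dotted lines mark -1 and 1. The sterol enzymes all stay between the dotted lines, as did the intervals of 90.8% of all probe sets. FOXA1, FHL2 and PMVK, whose bars are clear of 0, do not pass after adjustment.

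Genes downstream of sterols gave no shared direction. SCD, stearoyl-CoA desaturase, read 672, 683 and 544 without and 839, 802 and 561 with 4-OHT, higher in each pair by 0.04 to 0.31, but its 3 other probe sets were lower. SREBF2, which encodes a sterol-regulated transcription factor, differed by -0.28, -0.75 and 0.04. ABCG1, a cholesterol exporter, read 46.9, 34.6 and 35.3 without and 7.01, 21.1 and 28.7 with it, without overlap (-0.70 ± 0.26 SE, limma adjusted p = 0.784), and replicate 1 had the largest difference: without it the mean was -0.32. The medians were -0.06 over 10 SREBP genes and -0.02 over 9 LXR genes, and 0.05 and 0.08 with equal medians. Of 21 lysosome genes 3 were higher and 5 lower in all 3 pairs (all genes: 10.7% and 19.2%). Among them ATP6V1H, a subunit of the lysosomal proton pump, read 201, 256 and 251 without and 240, 307 and 311 with 4-OHT.

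The drug metabolism genes measured were mostly dim. Of 21 genes 0 were higher and 7 lower in all 3 pairs (33.3% of the list, 19.2% of all genes), with a median of -0.26 as deposited, -0.15 after quantile normalization and -0.16 with equal medians. Only 8 of the 21 had a signal at or above the median, and the median over the 11 left when the lowest 40% of probe sets were removed was -0.09. CYP3A4, a major enzyme of drug oxidation, read 115, 80.3 and 96.1 without and 65.6, 65.4 and 66.6 with 4-OHT. The groups did not overlap (-0.45 ± 0.21 SE, limma adjusted p = 0.784), and its probe set can read other CYP3A genes. CYP2D6, which makes 4-OHT from tamoxifen in liver, read 57.8, 32.5 and 15.0 without and 20.6, 11.7 and 9.52 with it. CYP1B1, an estrogen-hydroxylating enzyme, read 72.2, 190 and 117 without and 53.1, 187 and 125 with it, so replicates 2 and 3 hardly differed. CYP1A1, which the aryl hydrocarbon receptor induces, read 73.2, 12.2 and 24.96 without and 56.9, 25.6 and 22.96 with it. Of 13 NRF2 and glutathione genes 0 were higher and 2 lower in all 3 pairs (all genes: 10.7% and 19.2%). The 2 included SLC7A11, the cystine transporter, at 69.4, 72.9 and 54.5 without and 49.7, 48.9 and 41.6 with 4-OHT. Its 2 other probe sets gave 0.11 and 0.36.

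Lists of stress responses were read next. Among 17 amino acid response genes controlled by ATF4, 6 were higher and 0 lower in all 3 pairs, with a median of 0.06. The 6 were 35.3% of the list, against 10.7% of all genes and 13.9% of genes at or above the median signal. Of the 17, 16 were at or above it. WARS1, tryptophanyl-tRNA synthetase, read 149, 330 and 591 without and 210, 416 and 688 with 4-OHT, higher in each pair (0.33 ± 0.10 SE, limma adjusted p = 0.784). ASNS, asparagine synthetase, read 195, 568 and 260 without and 334, 705 and 264 with it, so replicate 3 was level. Among 13 heat shock genes 7 were higher and 3 lower in all 3 pairs, with a median of 0.13. Of genes at or above the median signal 13.9% were higher and 16.2% lower in all 3 pairs (all genes: 10.7% and 19.2%). BAG3, a co-chaperone, read 754, 458 and 467 without and 841, 503 and 648 with it (0.25 ± 0.10 SE). HSPA4, an Hsp70-family chaperone, read 412, 515 and 373 without and 432, 616 and 491 with it, but its other 3 probe sets gave -0.13 to 0.36. HSPB7, a small heat shock protein of muscle, was lower, at 105, 61.2 and 86.9 without and 49.6, 15.1 and 48.4 with it, without overlap (-0.96 ± 0.24 SE, limma adjusted p = 0.784). Among 15 unfolded protein response genes 2 were higher and 0 lower in all 3 pairs, and the median of -0.03 became 0.07 with equal medians.

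Of 16 G1 cell cycle genes 6 were higher and 3 lower in all 3 pairs, with a median of 0.10. The shares were 10.7% and 19.2% of all genes. They were 13.9% and 16.2% of genes at or above the median signal, where all 16 lay. CDK6, a kinase of G1 entry, differed by 0.05, -1.21 and -0.16, most in replicate 2. SKP2, which marks CDK inhibitors for degradation, read 1310, 587 and 705 without and 3142, 658 and 843 with 4-OHT. Replicate 1 had the largest difference (1.25, against 0.16 and 0.25). MYC read 611, 645 and 798 without and 543, 482 and 729 with it, lower in each pair (-0.23 ± 0.12 SE, limma adjusted p = 0.789). All 25 genes of S phase and mitosis had 95% intervals within 1 of 0. So did 10646 of the 11108 probe sets at or above the median signal, where all 25 lay. The median of the 25 was 0.01, and -0.05 after quantile normalization. The medians were -0.08 over 12 p53 targets (0.02 with equal medians) and 0.05 over 16 apoptosis regulators. Without replicate 1 both were -0.03. BAX, which permeabilizes mitochondria, read 79.6, 113 and 78.8 without and 65.8, 65.0 and 50.6 with it (-0.47 ± 0.21 SE, limma adjusted p = 0.784).

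Some genes differed in replicate 1 and hardly in the other pairs. KLF4, an immediate early zinc finger factor, read 157, 104 and 750 without and 1051, 94.4 and 796 with 4-OHT. GADD45A, a p53 target induced by growth arrest, read 332, 296 and 596 without and 797, 283 and 582 with it. CCN1, an immediate early matricellular protein, read 247, 192 and 409 without and 679, 191 and 408 with it. All 3 were far higher in replicate 1 and level in the other pairs, where the means were -0.02, -0.05 and -0.01. Of 19 immediate early genes 0 were higher and 3 lower in all 3 pairs (all genes: 10.7% and 19.2%). Of 14 TGF beta and protein kinase C genes 1 was higher and 1 lower.

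Muscle genes bear on the identity of these cells. Of 28 sarcomere genes 0 were higher and 8 lower in all 3 pairs (28.6% of the list, 19.2% of all genes), with a median of -0.10 as deposited, -0.04 after quantile normalization and 0.00 with equal medians. TNNC2, fast troponin C, read 93.5, 43.3 and 1289 without and 37.3, 27.2 and 835 with 4-OHT (-0.71 ± 0.25 SE, limma adjusted p = 0.784; -0.54 without replicate 1). MYL1, a myosin light chain, differed by -2.23, 0.01 and -0.13, so its mean came from replicate 1. MSC, a repressor of myogenic factors, read 359, 127 and 391 without and 169, 113 and 333 with it, and ID1, an inhibitor of such factors, read 1571, 441 and 460 without and 881, 385 and 423 with it. Both were lower in each pair, by a mean difference of -0.47 and -0.38, and -0.19 and -0.15 without replicate 1. MYOD1, the myogenic determination factor, read 1112, 222 and 367 without and 2098, 197 and 322 with it. It was higher in replicate 1 (0.91) and lower in the others (-0.16 and -0.18). DES, desmin, read 273, 89.0 and 710.5 without and 343, 85.6 and 862 with it.

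The list of PAX3-FKHR targets was written with earlier results of these data known. It had medians of 0.26, -0.08 and 0.05 in the 3 pairs, highest in replicate 1. Of its 27 genes 4 were higher and 2 lower in all 3 pairs (all genes: 10.7% and 19.2%). Interferon genes had a median of -0.11 over 20 genes, with pair medians of -0.24, 0.08 and 0.02, and 2 were higher and 3 lower in all 3 pairs. Their median was -0.02 without replicate 1 and -0.01 with equal medians. IFI6, an interferon-induced mitochondrial protein, read 15.9, 96.4 and 119 without and 22.7, 114 and 155 with 4-OHT. Medians over 18 hypoxia, 17 respiratory chain and 14 ribosomal protein genes were 0.05, 0.06 and 0.07. The respiratory chain pairs had medians of -0.07, 0.25 and 0.04 and the ribosomal pairs 0.07, 0.30 and -0.14. Both lists were highest in replicate 2, and without it their medians were -0.01 and -0.04. Of the 24 lists, 4 had a positive and 8 a negative median in all 3 pairs, and 0 of 404 measured list genes passed the test. Without replicate 1 the medians were -0.09 for drug metabolism, -0.11 for sarcomere genes, 0.08 for the ATF4 genes and 0.09 for heat shock proteins. The median took the other sign without replicate 1 for the estrogen-responsive (0.0028), lysosome (0.016), unfolded protein response (0.052), apoptosis (-0.033), immediate early (-0.0065) and PAX3-FKHR target (-0.053) lists. Without replicate 2 it did so for the unfolded protein response (0.016), respiratory chain (-0.0077), ribosomal (-0.038) and myogenic regulator (0.021) lists. Without replicate 3 it did so for the NRF2 (0.077), unfolded protein response (0.011), apoptosis (-0.0056) and S phase (-0.037) lists. The sign of the list median turned for 3 lists after quantile normalization and for 12 with equal medians.

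**Figure D4:**
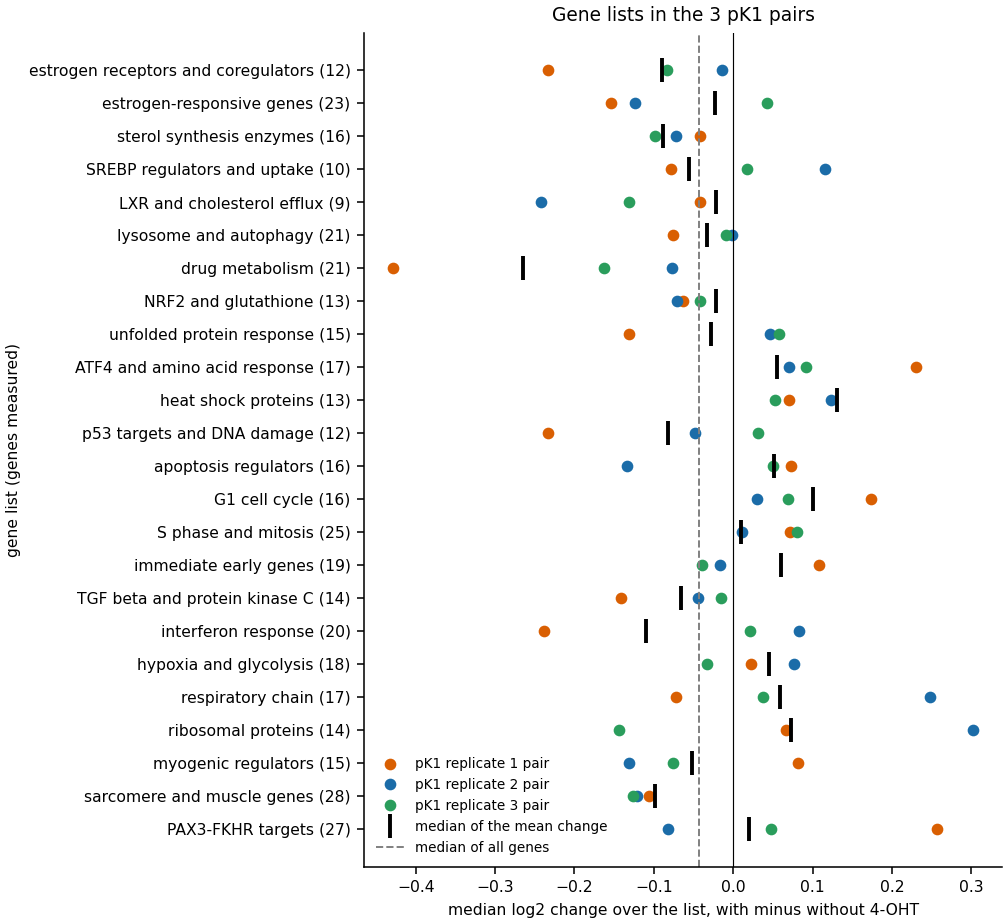
Median log2 difference with minus without 4-OHT (horizontal axis) over each of 24 gene lists in each pK1 pair (coloured points) and for the mean of the pairs (black bars); the dashed line is the median of all genes, -0.04. Drug metabolism lies farthest below 0 (-0.26) and heat shock proteins farthest above (0.13).

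The genes with the smallest p among brighter probe sets, 8 in each direction, are given next, and none passed. They were chosen by the p of this comparison, so their values are a description. TES, a focal adhesion protein, read 213, 257 and 532 without and 320, 391 and 729 with 4-OHT. CRY1, a repressor of the circadian clock, read 227, 137 and 143 without and 342, 198 and 194 with it. Each was about equally higher in the 3 pairs, by 0.44 to 0.58 and 0.40 to 0.56, but the other TES probe set gave 0.05. CARS1, cysteinyl-tRNA synthetase, read 112, 105 and 121 without and 194, 163 and 174 with it (0.58 ± 0.13 SE), and its brighter probe set gave 0.16. KLHL21, an adaptor of a ubiquitin ligase, read 97.2, 64.3 and 87.4 without and 168, 102 and 155 with it (0.66 ± 0.15 SE). PPP1R12A, which targets myosin phosphatase, read 144, 111 and 160 without and 203, 188 and 216 with it. In these 3 the groups did not overlap, and the 2 other PPP1R12A probe sets gave 0.07 and 0.27. PCMT1, which repairs aged proteins, HSPH1, a large chaperone, and PLAU, the urokinase protease, were higher by 0.43, 0.37 and 0.39. The other HSPH1 probe set gave 0.00, and the 2 other PCMT1 probe sets gave 0.13 and 0.32. The other PLAU probe set gave 0.30, with -0.34 in replicate 2.

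Among the 8 lower genes the groups did not overlap for UBE2G2, H2BC12L and PATZ1. UBE2G2, a ubiquitin-conjugating enzyme of protein quality control, read 160, 219 and 192 without and 92.1, 87.9 and 105 with 4-OHT (-0.89 ± 0.16 SE, limma adjusted p = 0.784), and its other probe set gave -0.22. H2BC12L, a histone H2B gene, read 555, 558 and 441 without and 261, 288 and 320 with it (-0.80 ± 0.15 SE). PATZ1, a zinc finger transcription factor, read 199, 207 and 186 without and 121, 89.8 and 145 with it. That probe set differed by -0.68, and the 5 other PATZ1 probe sets gave -0.31 to -0.02. TAGLN3, of the transgelin family, read 252, 52.2 and 71.5 without and 106, 26.4 and 45.4 with it. HIGD2A, a respiratory chain assembly factor, PPP5C, a protein phosphatase, and BBLN were lower by a mean difference of -0.47, -0.57 and -0.50. The other probe set of HIGD2A gave -0.28, that of PPP5C -0.16, and the 3 others of BBLN -0.64 to -0.20. IGLC1, an immunoglobulin light chain constant region, read 175, 45.3 and 45.4 without and 75.4, 15.1 and 10.3 with it (-1.09 ± 0.25 SE). Its 5 other probe sets gave -0.38 to 0.02. The probe sets of IGLC1, H2BC12L and HIGD2A can read related transcripts.

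**Figure D5:**
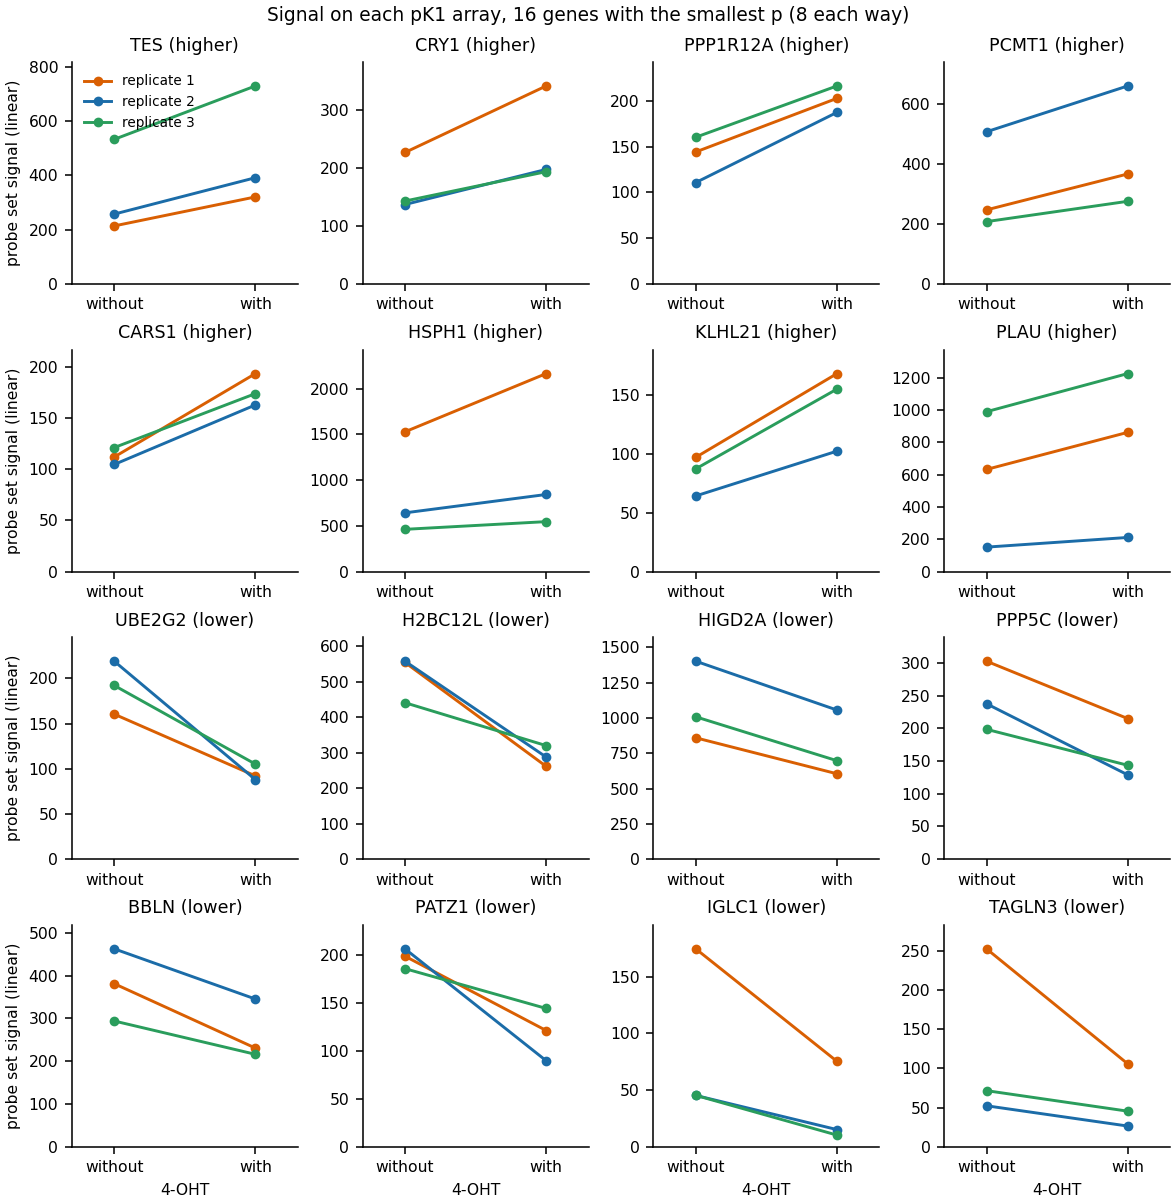
Linear probe set signal (vertical axis) without and with 4-OHT on the 6 arrays labelled pK1, for the 8 higher and 8 lower genes with the smallest p; lines join arrays of the same replicate number. Each gene lies one way in all 3 pairs, while the levels of the replicates often differ by more than the step with 4-OHT, as for PLAU (151 to 989 without 4-OHT).

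These 16 genes were looked up in the PAX3-FKHR-ER pairs. The 4-OHT differences of those pairs did not enter the choice, but their residual spread did, since the fit shares 1 estimate of spread over all 12 arrays. Of the 8 higher genes 5 had a positive mean there, as did 46.6% of all probe sets. Of these 8, 3 were higher in all 3 pairs: TES, CRY1 and PLAU. KLHL21 went the other way, at -0.11, -0.70 and -0.65, as did HSPH1, at -0.17, -0.22 and -0.22. Of the 8 lower genes 6 had a negative mean, as did 53.4% of all probe sets, and 1, TAGLN3, was lower in all 3 pairs. The share of all probe sets with 1 direction in all 3 of those pairs is not given here. The counts of such genes therefore have no background to be read against. UBE2G2 read 101, 161 and 153 without and 153, 152 and 171 with 4-OHT there. The difference between constructs passed for 0 of 22215 probe sets in limma (0%; 4.74% at an unadjusted p under 0.05), and the smallest adjusted p for these 16 genes was 0.924.

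Among probe sets with a signal at or above the median, the 6 genes each way with the largest mean difference of one sign in all 3 pairs were chosen by that difference. For 5 of the 6 higher genes the difference in replicate 1 was over 2 times the mean of replicates 2 and 3. AQP3, a water and glycerol channel, read 83.0, 28.8 and 93.2 without and 461, 44.4 and 109 with 4-OHT, a mean of 0.97 with all pairs and 0.31 without replicate 1. NDRG1, a stress-induced gene, read 65.0, 148 and 338 without and 292, 212 and 349 with it. NT5E, an ectonucleotidase, ARRB1 and MET, the hepatocyte growth factor receptor, had means of 0.95, 0.82 and 0.80, and the 3 other MET probe sets gave -0.37 to -0.06. The 3 other ARRB1 probe sets gave 0.06 to 0.38, and the 2 other AQP3 probe sets gave 0.19 and 0.74. The sixth, MACROH2A2, a histone variant, read 32.9, 201 and 24.1 without and 80.8, 230 and 78.0 with it. Among the 6 lower genes replicate 1 had that weight for 1, AHCYL2. NSG1, a neuronal endosomal protein, read 81.2, 68.0 and 127 without and 8.49, 57.9 and 10.8 with it (-1.53 ± 0.41 SE, limma adjusted p = 0.784), and its 2 other probe sets gave -0.17 and -0.07. AHCYL2, DLK2 and GSTZ1 had means of -1.14, -1.09 and -0.99. In the PAX3-FKHR-ER pairs 5 of the 6 higher genes, all but MACROH2A2, were higher in each pair. Of the 6 lower genes 5 had a negative mean there and 1 was lower in each pair. Of all probe sets 46.6% had a positive and 53.4% a negative mean there, and the share with 1 direction in each pair is not given here. The probe sets of ARRB1 and MET were among the 45 described above.

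Promoter sequences from RefSeq (GRCh38.p14, 250 bases before to 50 after each start) were searched on both strands for the estrogen response element, since the receptors of 4-OHT bind it. The element was taken as GGTCA and its reverse complement TGACC with 3 free bases between them. It lay in 20 of 35116 promoters (0.057%), in 0 of the 21 matched promoters of the 27 genes with the smallest p or largest difference, and in 0 of 17 matched estrogen-responsive genes. Each full element contains GGTCA, which alone lay in 37.4% of all promoters, 7 of those 21 genes and 11 of those 17. Of the 20 genes with the full element 3 had a probe set, and they are shown as the genes that carry the receptor's element beside their start, with the element in capitals, in the gene's direction.
MROH7 (chr1:54641717-54641745, plus strand): gacttctgGGTCATGGTGACCtcataaag
ZNF669 (chr1:247104510-247104538, minus strand): ccaaaagcGGTCATTCTGACCtcatccag
PRR16 (chr5:120531414-120531442, plus strand): cagccaggGGTCATTGTGACCtaaatgca

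All 3 were dim, with mean signals of 13.3, 33.7 and 21.1. MROH7 read 15.8, 14.2 and 13.7 without and 7.68, 14.0 and 14.4 with 4-OHT. ZNF669 read 44.3, 34.6 and 29.7 without and 36.0, 25.6 and 32.1 with it, and PRR16 read 33.7, 12.2 and 27.6 without and 10.9, 12.9 and 29.5 with it. None of them had 1 direction in all 3 pairs, and none passed. The AP-1 motif TGACTCA, through which ligand-bound receptors can also act, lay in 4.95% of all promoters and in 2 of the 21, shown with the motif in capitals.
KLHL21 (chr1:6603039-6603061, minus strand): gacagcggTGACTCAgcctgcgg
PCMT1 (chr6:149749573-149749595, plus strand): agtggcgcTGACTCAgcccggcc

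Both genes were among the 8 higher ones described above. A match is a description of the letters and does not show binding.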

How the data were processed

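RNA of 12 samples was measured on U133A arrays. Per the submitters' processing notes, the authors used GCOS and MAS5 (versions not given in the sources used here). The deposited values are linear intensity per probe set, with a like trimmed mean on every array, so a change in total RNA would not show. Biotin labelling is per the labels' protocols. Of 22283 probe sets 68 controls were left out and 22215 tested. 19065 had 1 gene symbol, 1043 several and 2107 none, and only the first were named, by Entrez identifier against RefSeq (GRCh38.p14; 19059 matched, 0 altered).

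limma 3.58.1 in R 4.3.3 was fitted to log2(signal + 16) of all 12 arrays with a block for each pair (construct and replicate number), eBayes with an intensity trend, two-sided, Benjamini-Hochberg threshold 0.05. The pairing was checked on deviations from group means: r = 0.70, 0.70 and 0.70 for the same number and -0.44 to -0.25 for different numbers. Deviations within a group sum to 0, so positive values for the same number bring negative ones for different numbers. The latter add no support of their own. The number of arrays limits the precision.

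Genes of lists were read by their brightest probe set. Named were, with mean pK1 signal at or above the median, the 8 genes each way of smallest p, the 6 each way of largest change with 1 sign in 3 pairs, up to 4 per list, and fixed receptor, sterol, cytochrome and muscle genes. Members and lists were chosen with earlier results of these data known. Figures used matplotlib 3.10.9.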

Additional observations from a re-analysis of the deposited data

How the results depend on the processing

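The count past adjusted p 0.05 stayed 0 in all 18 alternative fits. Of 1919 values of 109 named genes under the alternatives 22 had the other sign and 0 passed. For the 27 genes of smallest p or largest difference 0 of 478 had the other sign. These 27 had 1 sign in all 3 pairs, so leaving out a pair could not turn their mean. Fits that alter only the block, the spread estimate, the filter or the fusion arrays keep every mean. These counts therefore say little about how stable the signs are. With no replicate block, probe sets at an unadjusted p under 0.05 numbered 97 higher and 265 lower and the median margin was 0.638 (the 6 pK1 arrays alone without the block: 96 and 306). With the lowest 40% left out there were 368 higher and 548 lower, with the lowest 60% out 304 and 306, and with equal medians 1342 and 347. The share higher was then 26.8%, 23.9%, 40.2%, 49.8% and 79.5%. Fewer probe sets tested lower the filtered counts, and otherwise the cause was not tested. With replicates 2 and 3 alone the sign turned for NRIP1 (-0.064), GADD45A (-0.047), KLF4 (-0.018), CCN1 (-0.0065), CYP1B1 (0.035) and MYOD1 (-0.17). With equal medians it turned for EBP (0.039), DHCR7 (0.033) and CYP1B1 (0.0067), and with log2(signal + 64) for TFF1 (-0.010). Leaving out each replicate in turn gave ranges from -0.064 to 0.45 for NRIP1, -0.047 to 0.60 for GADD45A, -0.018 to 1.35 for KLF4, -0.0065 to 0.70 for CCN1, -0.18 to 0.035 for CYP1B1 and -0.17 to 0.37 for MYOD1. The first 4 of these and MYOD1 were negative, and CYP1B1 positive, among these omissions without pK1 replicate 1 only. The ranges were -0.35 to 0.44 for GPER1, -0.24 to 0.084 for DHCR7, -0.51 to 0.17 for HMGCS1 and -0.18 to 0.24 for CYP1A1, each turned without pK1 replicate 2. They were -0.31 to 0.23 for TFF1 and -0.034 to 0.13 for INSIG1, each turned without replicate 3. The cause of these turns was not tested. List medians moved by more than 1 SD of the pair medians in 38 of 240 values.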
